A study of Mus musculus with 12 samples.

Results

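The 10 genes described here carry out or control de novo lipogenesis, the making of fatty acids from acetyl-CoA and their storage as triglyceride, and they were taken by symbol from the 22923 distinct gene symbols of the deposited files. They are Acly, Acaca, Fasn, Me1, Elovl6, Scd1, Scd2, Dgat2, Srebf1 and Thrsp, each listed once. RNA was sequenced from the proximal hind limb muscle of male mice aged 22 weeks of the FVB strain, FVB/N in the study's methods, with 3 mice in each of 4 groups. The WT groups hold mice titled Flox, a word the study's methods do not explain, and were taken as its wild-type littermates. The KO groups hold mice lacking both αB-crystallin (Cryab) and HspB2 (Hspb2). Each genotype was kept on normal chow or on a high fat diet. The knockout removes both chaperone genes together, so the part of each cannot be told apart. The comparisons ask how diet and the loss of both chaperones bear on the level of the lipogenic genes in muscle.

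De novo lipogenesis starts from citrate, which is cleaved to acetyl-CoA, carboxylated to malonyl-CoA and condensed into palmitate at the expense of NADPH. Palmitate is then elongated, desaturated and esterified to glycerol. The pathway is most active in liver and in adipocytes, is driven by insulin and carbohydrate through the transcription factors SREBP-1c, LXR and ChREBP, and is restrained by dietary fat. Muscle fibres hold little of it, while the fat cells between fibres hold much, so that in whole muscle RNA a change in the number of a cell type and a change in RNA per cell cannot be told apart.

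The genotype label of 6 libraries conflicts with their titles, namely those of WT high fat 1 to 3, KO normal chow 3 and KO high fat 1 and 2. Groups follow the titles. Cryab lay between 412 and 837 FPKM in the 6 libraries titled WT and between 0.845 and 1.75 FPKM in the 6 titled KO, and Hspb2 between 81.5 and 103 and between 0.353 and 1.92 FPKM. FPKM, fragments per kilobase of transcript scaled to the size of the library, is corrected for gene length. The step between low values put the depth of the libraries within 1.36 times of each other. Markers of other cells set some libraries apart, since the summed FPKM of 8 lymphocyte markers was 79.6 in WT normal chow 2, 91.7 in KO normal chow 1 and 87.0 in KO normal chow 3, against 0.701 to 7.19 in the other 9. Among 8 skeletal muscle markers, whose sum lay between 60318 and 106774 FPKM, Myh4 was listed at 0 in every library and Acta1 at 0 in WT normal chow 1 and KO high fat 2.

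All 10 genes are protein coding in the GENCODE M21 annotation of GRCm38. Of these, 4 lie on chromosome 11, with Fasn at chr11:120805846-120824547, Acly at chr11:100476353-100528000, Srebf1 at chr11:60199089-60222581 and Acaca at chr11:84129672-84401651. The desaturase genes Scd1, at chr19:44394455-44407879, and Scd2, at chr19:44293674-44306864, stand 87590 bases apart and run in opposite directions. Thrsp was found at chr7:97412938-97417730, Dgat2 at chr7:99153658-99182719, Me1 at chr9:86581371-86695953 and Elovl6 at chr3:129532355-129638495. RefSeq promoter windows of 300 bases on GRCm38.p6, reaching 250 bases upstream of a start site, were matched for 7 of the 10 genes. They hold 10 windows, because Srebf1 has 3 start sites and Me1 has 2. Windows are printed for Fasn, Thrsp and Acly, whose levels followed each other across the libraries, and for the first start of Me1, whose level did not. Capitals mark the letters CCAAT, the box bound by NF-Y, and GGGCGG, the box bound by Sp1, on either strand. The windows stand on the minus strand at chr11:120824498-120824797 for Fasn, chr7:97417501-97417800 for Thrsp, chr11:100527951-100528250 for Acly and chr9:86695865-86696164 for Me1.
Fasn: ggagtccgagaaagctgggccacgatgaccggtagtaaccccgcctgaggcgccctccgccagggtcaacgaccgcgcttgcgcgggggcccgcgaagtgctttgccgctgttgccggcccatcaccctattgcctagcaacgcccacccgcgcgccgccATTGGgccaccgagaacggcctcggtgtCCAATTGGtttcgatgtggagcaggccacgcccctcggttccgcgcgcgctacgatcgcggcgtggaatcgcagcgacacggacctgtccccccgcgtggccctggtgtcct
Thrsp: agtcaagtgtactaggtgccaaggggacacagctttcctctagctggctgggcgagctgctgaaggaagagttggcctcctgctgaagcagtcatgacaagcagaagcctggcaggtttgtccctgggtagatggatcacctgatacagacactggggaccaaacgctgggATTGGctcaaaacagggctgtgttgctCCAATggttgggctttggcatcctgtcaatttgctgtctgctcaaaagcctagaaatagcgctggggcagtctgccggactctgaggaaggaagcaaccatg
Acly: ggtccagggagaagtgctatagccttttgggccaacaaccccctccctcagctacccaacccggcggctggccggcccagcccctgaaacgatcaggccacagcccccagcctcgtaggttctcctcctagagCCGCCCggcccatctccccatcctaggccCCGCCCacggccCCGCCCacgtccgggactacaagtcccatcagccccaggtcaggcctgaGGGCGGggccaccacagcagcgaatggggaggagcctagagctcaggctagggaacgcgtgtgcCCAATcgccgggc
Me1: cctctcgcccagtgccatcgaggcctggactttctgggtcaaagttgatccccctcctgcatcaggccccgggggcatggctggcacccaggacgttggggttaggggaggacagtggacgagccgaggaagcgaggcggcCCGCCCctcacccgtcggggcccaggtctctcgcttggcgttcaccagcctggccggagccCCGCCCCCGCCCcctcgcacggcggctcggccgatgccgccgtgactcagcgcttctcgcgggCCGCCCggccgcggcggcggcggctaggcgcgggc

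The Fasn window held CCAAT 3 times, 2 of them overlapping on opposite strands, and the Thrsp window held it 2 times, at 79 and 52 bases upstream of the start site. The Acly window held it 1 time, downstream of the start, beside 4 copies of GGGCGG. The Me1 window held 4 copies of GGGCGG and no CCAAT. The window of the other Me1 start, not printed, held CCAAT 1 time and no GGGCGG. The windows of Elovl6 and Acaca, whose levels also followed those of the other members, held neither. The Acaca window lay 65766 bases from the gene start in GENCODE, and that of the other Me1 start 8676 bases. These windows therefore do not show the promoter at the gene start. The Srebf1 windows lay 0, 1954 and 12110 bases from it. Of the printed windows, those of Fasn, Thrsp and Acly thus held CCAAT and that of Me1 did not. Over all matched windows, neither box set the genes that moved together apart from Me1. Among the members CCAAT was found in 6 of 10 windows and GGGCGG in 4 of 10, while 37.4% and 35.7% of all 32851 mouse windows of this length held them. The sterol element letters TCACNCCAC and the E-box CACGTG, held by 1.24% and 7.15% of all windows, were in none of the 10. The matches describe letters in these windows and were not read as sites.

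Acly, ATP citrate lyase, makes the cytosolic acetyl-CoA from which fatty acids are built. It was measured at 8.21, 19.1 and 16.9 FPKM in the WT chow libraries, 6.12, 7.91 and 8.27 in the WT high fat libraries, 22.9, 12.7 and 41.6 in the KO chow libraries and 10.6, 10.7 and 9.98 in the KO high fat libraries. The 3 KO high fat libraries lay close together, below all KO chow libraries and above all WT high fat libraries.

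Acaca, acetyl-CoA carboxylase 1, makes malonyl-CoA and sets the pace of the pathway. Its level was 2.45, 7.77 and 6.61 FPKM in the WT chow libraries, 1.49, 2.24 and 2.70 in the WT high fat libraries, 15.3, 9.50 and 24.6 in the KO chow libraries and 4.08, 3.15 and 3.13 in the KO high fat libraries. Every KO chow library was above every other library, and WT normal chow 1 was within the range of the WT high fat libraries.

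Fasn, fatty acid synthase, builds palmitate. It stood at 7.91, 49.5 and 41.9 FPKM in WT chow, 1.40, 6.21 and 10.6 in WT high fat, 98.4, 55.7 and 171 in KO chow and 29.6, 22.2 and 20.1 in KO high fat libraries. The KO chow libraries were again above all others, and WT high fat 1 was the lowest library. The group means were 33.1 ± 22.1, 6.08 ± 4.61, 108 ± 58.2 and 24.0 ± 4.98 FPKM (SD, n = 3 each), in the same order.

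Me1, cytosolic malic enzyme, supplies NADPH to fatty acid synthase. Its 12 values spanned only 1.54 times, at 136, 103 and 148 FPKM in WT chow, 96.2, 129 and 112 in WT high fat, 98.2, 121 and 107 in KO chow and 132, 108 and 137 in KO high fat libraries. All 4 groups overlapped.

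Elovl6, the elongase that takes palmitate to stearate, was the lowest of the members. It was found at 0.408, 1.65 and 1.47 FPKM in WT chow, 0.229, 0.531 and 0.488 in WT high fat, 2.81, 1.47 and 4.69 in KO chow and 0.732, 0.419 and 0.344 in KO high fat libraries. On each diet the genotypes overlapped, and the KO chow libraries were all above the KO high fat ones.

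Scd1, stearoyl-CoA desaturase 1, which makes monounsaturated fatty acids and is the main form in fat and liver, had the highest level and the widest range. It was measured at 126, 641 and 647 FPKM in WT chow, 7.31, 85.6 and 342 in WT high fat, 1319, 735 and 776 in KO chow and 657, 375 and 520.0 in KO high fat libraries. The highest library held 180 times the lowest, where the median tested gene above 0 in all libraries spanned 1.63 times. Within the WT high fat group alone Scd1 spanned 46.8 times.

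Scd2, a desaturase of the same family that is widely expressed, spanned far less. Its values were 14.0, 21.8 and 30.0 FPKM in WT chow, 8.0, 15 and 17.4 in WT high fat, 24.6, 20.9 and 18.9 in KO chow and 25.4, 19.3 and 17.4 in KO high fat libraries. Neighbouring groups overlapped in each of the 4 comparisons.

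Dgat2, diacylglycerol acyltransferase 2, adds the last fatty acid to triglyceride. It was at 32.5, 108 and 84.1 FPKM in WT chow, 25.7, 62.1 and 104 in WT high fat, 171, 83.1 and 137 in KO chow and 129, 138 and 139.9 in KO high fat libraries. The diets overlapped in both genotypes, and on high fat diet every KO library was above every WT library.

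Srebf1 encodes SREBP-1, the transcription factor of the lipogenic genes. It was measured at 32.2, 36.8 and 36.1 FPKM in WT chow, 18.3, 28.0 and 25.7 in WT high fat, 42.9, 29.7 and 37.9 in KO chow and 28.7, 26.9 and 24.7 in KO high fat libraries. It was the only member whose high fat libraries were below the chow libraries in both genotypes, and the genotypes overlapped on both diets. The files give 1 value for the gene and do not separate its 1a and 1c transcripts.

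Thrsp, known as Spot 14, is a nuclear protein tied to lipogenic gene expression in fat and liver. It was found at 18.8, 91.6 and 63.2 FPKM in WT chow, 13, 12.7 and 26.0 in WT high fat, 172, 78.5 and 229.9 in KO chow and 38.3, 35.8 and 30.7 in KO high fat libraries. WT normal chow 1 again lay within the WT high fat range.

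**Figure D1:**
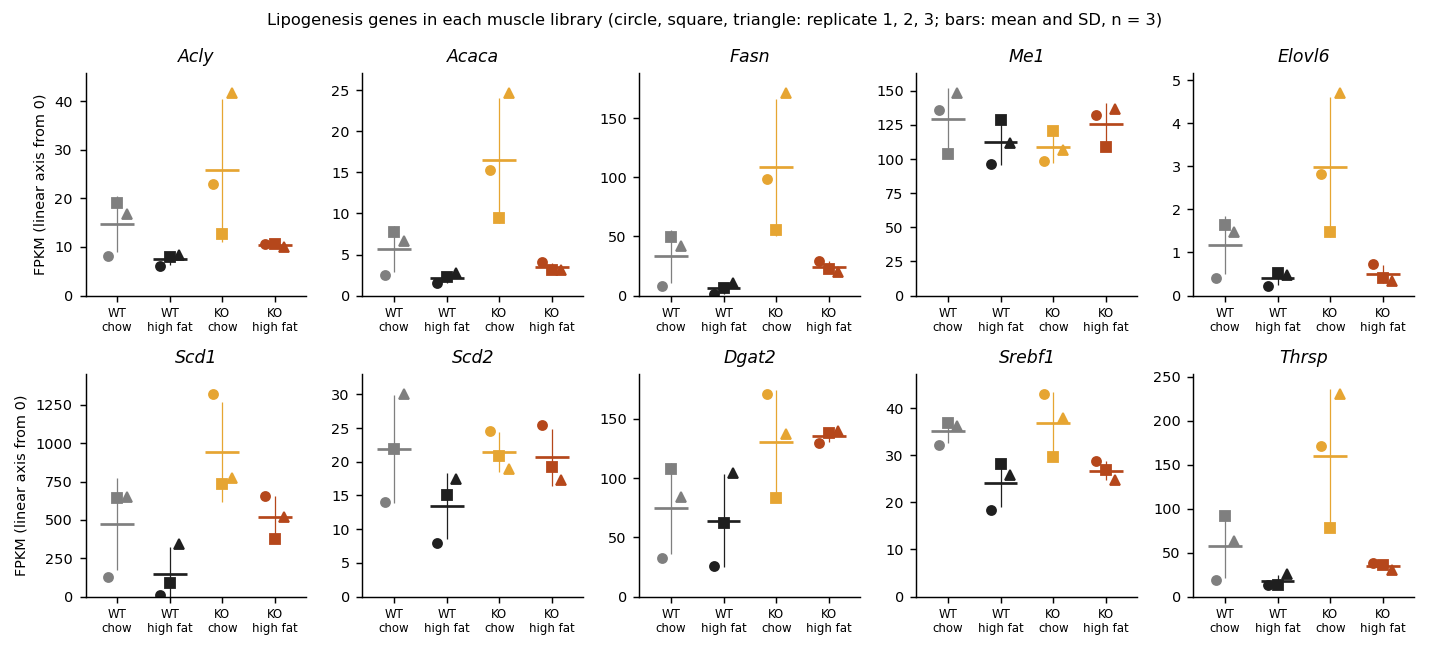
FPKM of each gene (linear axis from 0) in the 12 libraries by group, with symbols for replicates 1, 2 and 3 and lines for the mean and SD, the SD line being stopped at 0. Fasn, Acaca and Scd1 were higher in all 3 KO chow libraries than in any WT library, while Me1 spanned 1.54 times over all 12.

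A few libraries held the extremes. WT high fat 1 was the lowest of all 12 libraries for 9 members, WT high fat 2 being lowest for Thrsp, and within the WT chow group WT normal chow 1 was lowest for 9 members. KO normal chow 3 was the highest library for 5 members and KO normal chow 1 for 3. By mean level over the 12 libraries, per unit of length, the order was Scd1 (519 FPKM), Me1 (119), Dgat2 (101), Thrsp (67.5), Fasn (42.9), Srebf1 (30.7), Scd2 (19.4), Acly (14.6), Acaca (6.92) and Elovl6 (1.27). The range of each of Me1 and Dgat2 lay within that of Scd1, so neighbours in this order were not separated in every library.

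Groups were compared on log2(FPKM + 1) values with limma and Benjamini-Hochberg adjustment over 11945 genes with at least 1 FPKM in at least 3 libraries, a filter that all 10 members passed, Elovl6 through chow libraries alone. The filter thus favours a lower Elovl6 on high fat diet, and its diet differences are no support. The added 1 makes differences of low genes, Elovl6 above all, smaller than their fold. No member passed an adjusted p of 0.05 in any of the 7 comparisons fitted. Comparisons that share libraries, such as diet in KO mice and genotype on normal chow, are not independent of each other.

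In WT mice the high fat diet went with negative differences in all 10 members, with a median of -0.75 on the log2 scale against -0.01 over all genes tested. None of the 10 was called, where 0.1% of all genes were, and 7 of the 10 had an unadjusted p under 0.05, all lower, against 3.7% of all genes lower by that measure. Scd1 had the largest difference, -2.58 (SE 1.08, adjusted p = 0.545), followed by Fasn with -2.20 (SE 0.70, adjusted p = 0.327) and Thrsp with -1.50 (SE 0.53, adjusted p = 0.406). Srebf1, with -0.55 (SE 0.16, adjusted p = 0.273), had the lowest p of the members and was the 1 member whose groups did not overlap. Of all genes, 6.88% were lower on high fat diet without overlap. WT high fat 1 carried part of these values. Without it Scd1 differed by -1.12 (SE 0.73), less than Fasn with -1.55 (SE 0.68), Scd2 by -0.35 in place of -0.67 and Dgat2 by 0.27 in place of -0.27. Without WT normal chow 1 Elovl6 differed by -0.86 in place of -0.57, and without WT normal chow 3 Scd2 by -0.42.

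In KO mice 8 of the 10 members had a negative difference on high fat diet, with a median of -0.96 against 0.03 over all genes. Again none was called, as was no gene at all (0%), and 6 members had an unadjusted p under 0.05, all lower, where 4.73% of all genes did. Acaca, Acly, Fasn, Elovl6, Scd1, Srebf1 and Thrsp, 7 members in all, were lower on high fat diet without overlap, against 6.14% of all genes. Among these, Elovl6 passed the filter through chow libraries alone. Acaca differed by -1.89 (SE 0.36, 95% confidence interval -2.68 to -1.09, adjusted p = 0.161) and Elovl6 by -1.34 (SE 0.30, adjusted p = 0.225). The difference was -2.04 for Thrsp (SE 0.53, adjusted p = 0.360) and -2.01 for Fasn (SE 0.70, adjusted p = 0.431). Me1, with 0.21, and Dgat2, with 0.12, had the other sign, and their intervals of -0.14 to 0.56 and -1.0 to 1.23 covered 0. Without KO normal chow 1 and 3, which with WT normal chow 2 were rich in lymphocyte markers, the values of a fit to the other 9 libraries were -1.24 for Acaca, -1.20 for Fasn, -1.15 for Thrsp, -0.73 for Elovl6, -0.26 for Acly and -0.15 for Srebf1, the last in place of -0.43, with KO normal chow 2 alone on chow. Without KO normal chow 3 alone Acly differed by -0.66 in place of -1.08.

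Averaged over both genotypes, the diet difference was negative in 9 of 10 members with a median of -0.95, beside 0.01 over all genes. No member was called by limma, where 0.0586% of genes were, and 7 had an unadjusted p under 0.05 in the lower direction, where 5.94% of genes did. The 7 include Elovl6, which passed the filter through chow libraries alone. The smallest adjusted p was that of Acaca, 0.0752, at a difference of -1.43 (SE 0.26). Thrsp followed with -1.77 (SE 0.38, adjusted p = 0.130), Elovl6 with -0.96 (SE 0.21, adjusted p = 0.143), Srebf1 with -0.49 (SE 0.11, adjusted p = 0.160) and Fasn with -2.10 (SE 0.49, adjusted p = 0.160). Without WT normal chow 1, Acaca (-1.64, adjusted p = 0.0446) and Thrsp (-2.10, adjusted p = 0.0446) passed the threshold, and without KO normal chow 2 Acaca did (-1.59, adjusted p = 0.0442). With single libraries left out, 1 to 18 of all genes were called, against 7 with all libraries. The calls of Acaca and Thrsp were not set against the count over all genes in the same fit. Scd1, at -1.71 (SE 0.76), was at -0.98 without WT high fat 1.

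On normal chow, KO minus WT, the difference was positive in 9 of 10 members, Me1 being the exception with -0.24 (SE 0.16), and the median was 0.87 against -0.03 over all genes. None was called, where 0.0586% of all genes were, and 4 had an unadjusted p under 0.05, all higher, where 6.73% of all genes did. Acaca, Fasn and Scd1, 3 of the 10, were higher in KO without overlap, against 8.15% of all genes. Fasn differed by 1.88 (SE 0.70, adjusted p = 0.281), Thrsp by 1.58 (SE 0.53, adjusted p = 0.277) and Acaca by 1.42 (SE 0.36, adjusted p = 0.263). Scd2, with 0.02 (95% confidence interval -0.62 to 0.67), and Srebf1, with 0.06 (-0.30 to 0.41), were near 0. Without WT normal chow 1 the differences were 1.09 (SE 0.60) for Fasn, 0.93 (SE 0.42) for Thrsp, 0.50 for Scd1 in place of 1.28, 0.39 for Dgat2 in place of 0.90, 0.56 for Elovl6 in place of 0.85 and 0.34 for Acly in place of 0.69. Without KO normal chow 3 Elovl6 differed by 0.55 and Acly by 0.28, and without KO normal chow 2 Acly by 1.1.

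On high fat diet all 10 members had a positive difference, KO minus WT, with a median of 0.57 against -0.01 over all genes. None was called, where 0.109% of all genes were, and 3 had an unadjusted p under 0.05, all higher, against 9.79% of all genes. Acly, Acaca, Fasn, Scd1, Thrsp and Dgat2, 6 of the 10, were higher in KO without overlap, a state reached by 13% of all genes. Scd1 differed by 3.01 (SE 1.08, adjusted p = 0.199), Fasn by 2.07 (SE 0.70, adjusted p = 0.176) and Dgat2 by 1.28 (SE 0.51, adjusted p = 0.239). Elovl6 differed by 0.08 (95% confidence interval -0.58 to 0.74). Without WT high fat 1, which held 7.31 FPKM of Scd1, the differences were 1.55 (SE 0.73) for Scd1, 1.43 (SE 0.68) for Fasn, 0.75 (SE 0.46) for Dgat2 and 0.32 for Scd2 in place of 0.63.

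Averaged over both diets the genotype difference was positive in 9 of 10 members, with a median of 0.77 against -0.02. None was called by limma, where 0.862% of all genes were, and 5 had an unadjusted p under 0.05, all higher, where 13.1% of all genes did. Fasn, with 1.98 (SE 0.49), had an adjusted p of 0.0639, Acaca, with 0.97 (SE 0.26), of 0.0710 and Thrsp, with 1.32 (SE 0.38), of 0.0787. Single libraries decided this as well, and the calls over all genes moved with them. With single libraries left out, 10 to 1208 of all genes were called, against 103 with all libraries. The members that passed were not set against the count over all genes in the same fit. Without KO normal chow 2, Acaca (1.13), Fasn (2.18), Thrsp (1.54) and Acly (0.77) passed, without WT high fat 3 Fasn (2.23) and Scd1 (2.76) did, and without WT normal chow 2 Fasn (2.21) did, with adjusted p between 0.0361 and 0.0487. Scd1, at 2.15 with all libraries (SE 0.76, adjusted p = 0.119), was at 1.42 without WT high fat 1, and Acly, at 0.57, was at 0.36 without KO normal chow 3.

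The interaction, the diet difference in KO minus that in WT, was called for no member and no gene (0%), and no member reached an unadjusted p under 0.05, where 6.25% of genes did. It was -0.90 for Acaca (95% confidence interval -2.03 to 0.22), 1.73 for Scd1 (-1.64 to 5.10) and 0.19 for Fasn (-1.98 to 2.37). The intervals of Scd1 and Fasn leave large differences in either direction possible, and that of Acaca leaves a large negative one. Without WT high fat 1 the interaction of Scd1 was 0.27 and that of Fasn -0.45.

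**Figure D2:**
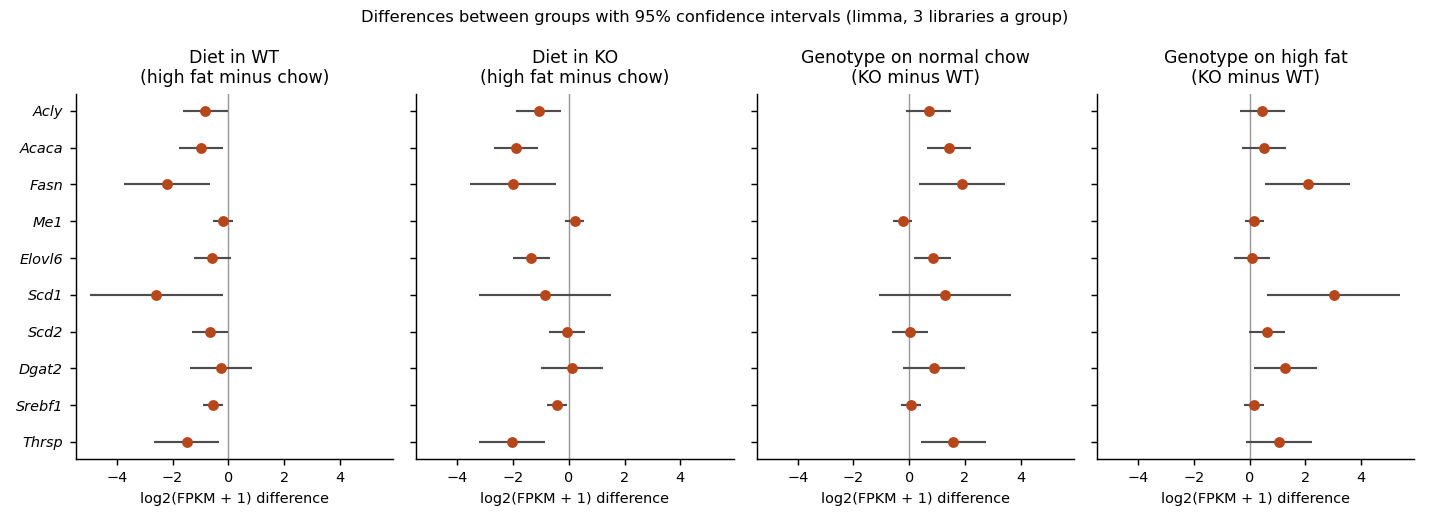
Log2(FPKM + 1) differences between groups for the 10 genes in 4 comparisons, with points for the limma estimate and lines for its 95% confidence interval. Diet differences in KO mice lie left of 0 for 8 genes and genotype differences on high fat diet lie right of 0 for all 10, with none past an adjusted p of 0.05.

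Adipocyte genes moved with these values. Adipoq, the fat cell hormone adiponectin, was at 21.2, 116 and 93.8 FPKM in WT chow, 1.40, 28.9 and 94.8 in WT high fat, 224, 106 and 195 in KO chow and 112, 91.7 and 125 in KO high fat libraries. Plin1 and Cidec, proteins of the fat cell lipid droplet, were likewise lowest in WT high fat 1, at 0.609 and 0.802 FPKM, and highest in KO libraries, at 114 and 138. Of 12 white adipocyte markers, all had a positive genotype difference on both diets, with medians of 1.38 on chow and 1.88 on high fat diet, and 12 of 12 had a negative diet difference in WT mice, with a median of -1.21. In KO mice 9 of 12 had a negative diet difference, with a median of -0.58. None of the 12 was called in any comparison by limma, with 10 at an unadjusted p under 0.05 in the genotype difference over both diets, where 26.5% of all genes had one. Their summed level was 653 to 2434 FPKM in WT chow, 626 to 1983 in WT high fat, 2348 to 5074 in KO chow and 2002 to 2524 in KO high fat libraries, with no marker at 0 in any library. The marker Fabp4 alone held 483 of the 653 FPKM in WT normal chow 1 and 584 of the 626 FPKM in WT high fat 1. These lowest sums therefore say little about the other markers. Within the list, in KO mice, the fat cell product Cfd (adipsin) and the marker Adrb3 were lower on high fat diet without overlap, against 6.14% of all genes. The fat cell product Lep (leptin) was higher without overlap, against 10.7% of all genes. Cfd was at 577 to 1329 FPKM in KO chow and 59.9 to 112 in KO high fat libraries. The values were 7.17 to 18.1 and 1.33 to 3.79 FPKM for Adrb3, and 11.8 to 42.6 and 63.3 to 93.4 FPKM for Lep. In WT mice Cfd, Adrb3 and Lep overlapped between diets.

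Set per FPKM of Adipoq, the genotypes overlapped on chow for Fasn, Thrsp and Acaca, while for these genes and Elovl6 the diets did not overlap in KO mice. The Fasn to Adipoq ratio was 0.374, 0.426 and 0.447 in WT chow and 0.440, 0.526 and 0.876 in KO chow libraries, against 0.264, 0.242 and 0.161 in KO high fat libraries. In WT high fat libraries it was 0.998, 0.215 and 0.112, the first being WT high fat 1, where Adipoq itself was at 1.40 FPKM. The Thrsp ratio was 0.673 to 0.886 in WT chow and 0.741 to 1.18 in KO chow, and 0.246 to 0.390 in KO high fat libraries. That of Elovl6 was 0.0126 to 0.0240 in KO chow and 0.00276 to 0.00655 in KO high fat libraries.

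The Acaca ratio was 0.0669 to 0.116 in WT chow, 0.0686 to 0.126 in KO chow and 0.0251 to 0.0365 in KO high fat libraries. The ratios of Acly, at 0.103 to 0.213 in KO chow and 0.0800 to 0.116 in KO high fat libraries, and of Srebf1, at 0.192 to 0.281 and 0.198 to 0.293, overlapped between the diets. Scd1 differed from Fasn in that its ratio overlapped between all groups but WT chow and WT high fat, at 5.51 to 6.89 in WT chow, 2.96 to 5.22 in WT high fat, 3.98 to 6.94 in KO chow and 4.09 to 5.87 in KO high fat libraries. The Dgat2 ratio went the other way with diet in KO mice, with 0.704 to 0.785 on chow and 1.12 to 1.51 on high fat diet, and the KO chow values were below the 0.896 to 1.53 of WT chow. Adipocyte markers differed by this ratio as well. In KO mice the Cfd ratio was 5.35 to 6.81 on chow and 0.653 to 1.01 on high fat diet. That of Lep went the other way, at 0.0606 to 0.190 on chow and 0.617 to 0.749 on high fat diet. A lower ratio on high fat diet was thus not particular to the lipogenic genes. These ratios are a description and were not tested.

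**Figure D3:**
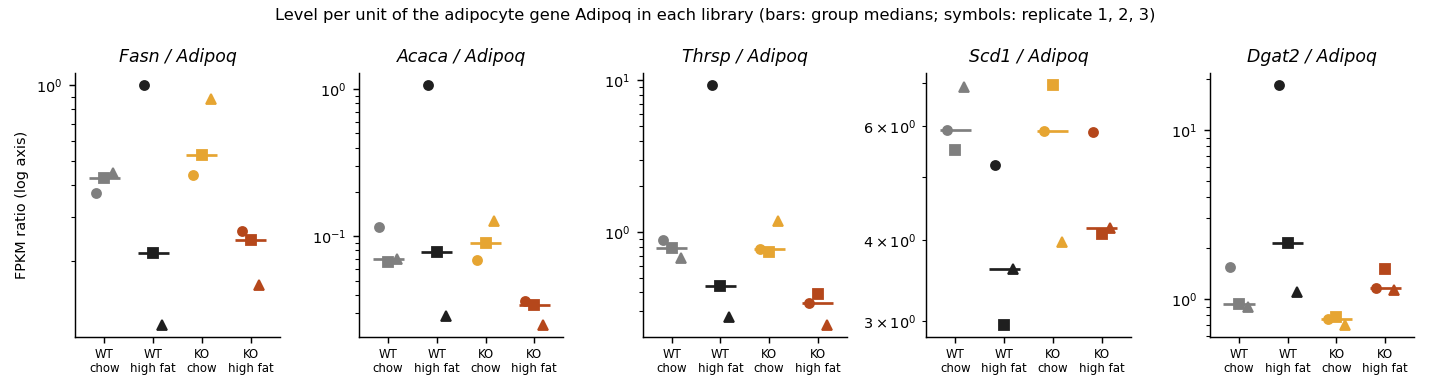
FPKM of Fasn, Acaca, Thrsp, Scd1 and Dgat2 divided by that of Adipoq in each library (log axes), by group, with bars for the group median and symbols for replicates 1, 2 and 3. In KO mice the ratios of Fasn, Acaca and Thrsp were lower in all high fat than in all chow libraries, those of Dgat2 were higher, and WT high fat 1 stands far above its group for every gene but Scd1.

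With the mean log2 level of the 12 adipocyte markers as a term in the fit, the genotype difference over both diets was 0.78 (SE 0.34) for Fasn in place of 1.98, 0.05 (SE 0.23) for Scd1 in place of 2.15, 0.12 (SE 0.13) for Dgat2 in place of 1.09 and 0.56 (SE 0.36) for Thrsp in place of 1.32, with adjusted p between 0.725 and 0.986. The diet difference over both genotypes was -1.17 (SE 0.22, adjusted p = 0.0689) for Acaca in place of -1.43, -1.42 (SE 0.29, adjusted p = 0.0820) for Fasn in place of -2.10 and -1.34 (SE 0.31, adjusted p = 0.125) for Thrsp in place of -1.77. For Scd1 it was -0.52 (SE 0.19) in place of -1.71, and for Dgat2 0.47 (SE 0.11, adjusted p = 0.136) in place of -0.07. For diet in KO mice, taken from this fit to all libraries, Acaca differed by -1.70 (SE 0.29, adjusted p = 0.0429), the 1 member called. Over all genes that comparison had 0 calls without the marker term and 0 to 53 across the alternative settings. The call of Acaca was not set against the count over all genes in its own setting. The markers were measured in the same libraries, and the list holds Cfd, Adrb3 and Lep, whose diets did not overlap in KO mice.

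**Figure D4:**
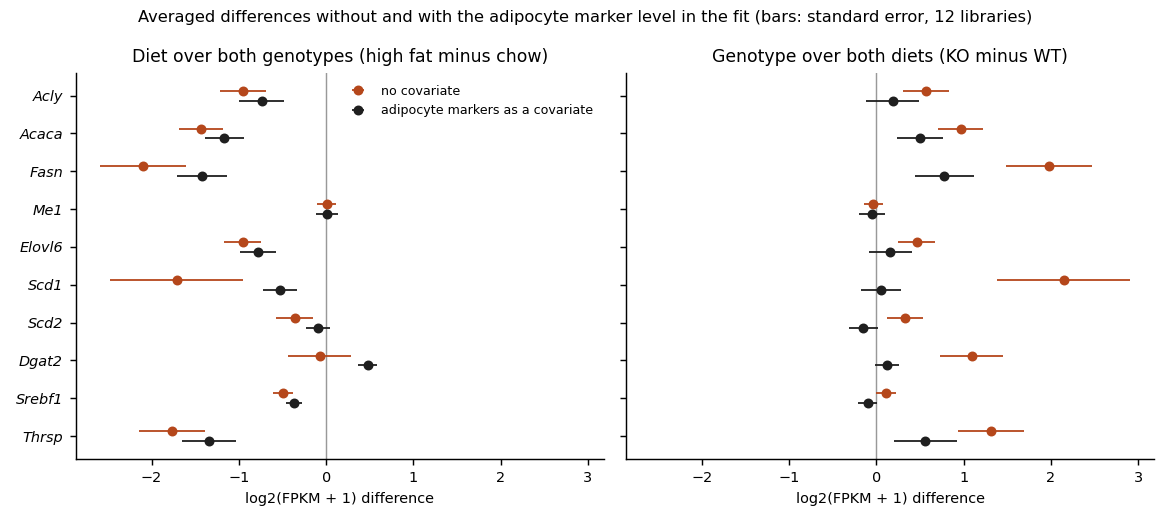
Differences averaged over both genotypes or both diets on the log2(FPKM + 1) scale, fitted without and with the adipocyte marker level, with bars for the standard error. With the marker level in the fit the genotype difference of Scd1 was 0.05 and that of Fasn 0.78, while the diet differences of Acaca, Fasn and Thrsp were -1.17, -1.42 and -1.34.

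The 3 libraries rich in lymphocyte markers include 2 of the 3 KO chow libraries, those with the highest values of Acaca, Fasn, Thrsp, Acly and Elovl6. Without the 3 libraries, a choice made after seeing the data that leaves KO normal chow 2 alone in its group and assumes that it varies like the other groups, the diet difference over both genotypes was -0.98 (SE 0.25, adjusted p = 0.467) for Acaca, -1.47 (SE 0.60, adjusted p = 0.672) for Fasn and -1.10 (SE 0.38, adjusted p = 0.595) for Thrsp. The genotype difference over both diets was 1.80 (SE 0.60, adjusted p = 0.381) for Fasn and 2.19 (SE 1.09, adjusted p = 0.456) for Scd1. Brown adipocyte markers were high in the same 3 libraries, at 49.4, 62.2 and 55.8 FPKM summed over 5 genes, against 15.2 in KO normal chow 2 and 1.19 to 3.98 in the other 8. The 6 Schwann cell markers also moved with the members in KO mice, with 6 of 6 negative for diet (median -0.87). Of the 6, 5 were lower on high fat diet without overlap, against 6.14% of all genes. For genotype on chow 6 of 6 were positive (median 0.91). None of the 6 was called by limma. At an unadjusted p under 0.05 there were 1 for diet in KO mice (11.3% of all genes) and 2 for genotype on chow (16.7%). Their summed level was 104 to 487 FPKM in WT chow, 137 to 226 in WT high fat, 282 to 452 in KO chow and 147 to 233 in KO high fat libraries, with none at 0. The part of these cells in the result was not tested.

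Across the 12 libraries the log2 level of Fasn followed the mean of the other members most closely (Pearson r = 0.98), and those of Thrsp (0.90), Scd1 (0.89), Acaca (0.88), Acly (0.87), Srebf1 (0.84), Elovl6 (0.82), Scd2 (0.81) and Dgat2 (0.70) followed it as well. Me1 did not, with an r of -0.08. The 8 genes outside the list whose levels were most like the mean of the members were Lama4 (r = 0.97), Cfd (0.96), also an adipocyte marker above, Rbp4 (0.96), Dapk1 (0.95), Aacs (0.94), Afap1 (0.94), Cyp2e1 (0.94) and Scn7a (0.94). The points share 12 libraries in 4 groups, and these values describe likeness of level only. Rbp4 encodes a retinol carrier secreted by liver and fat, and Aacs encodes acetoacetyl-CoA synthetase, which feeds ketone bodies into lipid synthesis.

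Of 46 other genes of lipogenesis and its supply, 42 were tested. Only Dgat1, the other acyltransferase that completes triglyceride, was called, in the genotype difference over both diets, where 0.862% of all genes were. It rose by 0.73 (SE 0.14, adjusted p = 0.0455) in KO mice over both diets, with 10.2, 15.1 and 12.4 FPKM in WT chow, 9.0, 9.85 and 12.7 in WT high fat, 27.4, 17.1 and 27.7 in KO chow and 14.3, 17.6 and 16.9 in KO high fat libraries. The KO libraries were above the WT libraries on each diet, a state reached by 8.15% of all genes on chow and 13% on high fat diet. The call did not hold in 9 of 12 fits that left out 1 library (adjusted p up to 0.126), nor with a replicate block (adjusted p = 0.0749), no filter on low values (adjusted p = 0.0789), the adipocyte markers in the fit (0.47, adjusted p = 0.60) or genotype by label (0.04), nor without the 3 lymphocyte-marker-rich libraries (0.58, adjusted p = 0.240). No other gene of the list was called by limma in any comparison. At an unadjusted p under 0.05 in either direction there were 6 of 42 for diet in WT mice (8.12% of all genes), 9 for diet in KO mice (11.3%), 16 for genotype on chow (16.7%), 13 for genotype on high fat diet (16.2%) and 1 for the interaction (6.25%). For diet and genotype averaged there were 10 (13.9% of all genes) and 22 (26.5%).

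Among the uncalled genes, Tkt, transketolase of the pentose phosphate pathway that supplies NADPH, had the smallest p for diet in KO mice, at -1.58 (SE 0.32, adjusted p = 0.161), with 53.5, 30.7 and 64.9 FPKM on chow and 15.5, 15.8 and 14.3 on high fat diet. Mogat1, a monoacylglycerol acyltransferase, differed there by -1.15 (SE 0.27, adjusted p = 0.266). Averaged over both genotypes the values were -1.23 for Tkt (adjusted p = 0.0752) and -0.89 for Mogat1 (adjusted p = 0.130). Mogat1, like Elovl6, passed the filter through chow libraries alone, which favours a lower value on high fat diet. Its diet differences are therefore no support. Tkt differed by 1.22 between genotypes on chow (adjusted p = 0.263), beside Dgat1 with 0.87 (adjusted p = 0.259).

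In WT mice the pathway gene with the smallest p was Mlycd, malonyl-CoA decarboxylase, which removes malonyl-CoA, the product of Acaca. It was at 55.5, 45.7 and 45.3 FPKM on chow and 90.6, 64.7 and 65.1 on high fat diet, a difference of 0.57 (SE 0.15, adjusted p = 0.199), beside 0.04 (SE 0.15) in KO mice. Its interaction was -0.52 (SE 0.21, adjusted p = 0.742), and that of Tecr, an enzyme of fatty acid elongation, 0.44 (adjusted p = 0.830). On high fat diet Lpin3, a phosphatidate phosphatase, differed between genotypes by 0.40 (adjusted p = 0.104) and Pgd, of the pentose phosphate pathway, by 0.75 (adjusted p = 0.117).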

How the data were processed

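Samples were grouped by their titles, with 3 mice in each group and replicates not stated beyond being independent samples. Per the submitters' processing notes, TopHat2 2.0.8b, Cuffdiff 2.1.1 and the mm10 build were used, and the authors deposited 1 FPKM value per gene symbol and library. Their filters and annotation are not given in the sources used here, and depth is unknown in reads. The FPKM total was between 499509 and 691621 in 11 libraries and 10656382 in KO normal chow 3, where the row of Mir324 held all but 484182. For repeated symbols the row highest on average was used.

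Genes with at least 1 FPKM in at least 3 libraries were tested on log2(FPKM + 1) with limma 3.58.1 in R 4.3.3, with 4 group means, an intensity trend and Benjamini-Hochberg adjustment at 0.05. The fit was tested on simulated data. Averaged comparisons used the same fit. Alternatives were a pseudocount of 0.1, no filter, a replicate block, the 2 groups of a comparison alone, the genotype label in place of titles, each library left out, the adipocyte markers as a covariate, quantile normalization and median-of-ratios scaling. The members, gene lists and tests were chosen with earlier results of these data known. All members were named, with pathway genes past the threshold or otherwise the 2 with the smallest p per comparison, 5 adipocyte genes and the 8 most alike in level. Of the adipocyte list, Adrb3 was named as well for its diet values and Fabp4 for its part in the sum. Marker lists covered white and brown adipocytes, muscle, macrophages, lymphocytes, fibroblasts, skin and Schwann cells, beside cholesterol synthesis.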

Additional observations from a re-analysis of the deposited data

How the results depend on the processing

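The number of members past an adjusted p of 0.05 was 0 in each of the 7 comparisons and stayed 0 under a pseudocount of 0.1, no filter, quantile or median-of-ratios scaling, only the groups compared, genotype by label and, added after seeing the data, without the 3 lymphocyte-marker-rich libraries. With the adipocyte markers as a covariate it was 1 for diet in KO mice. Leaving out each library in turn gave 0 to 2 members for diet over both genotypes, 0 to 4 for genotype over both diets and 0 in the other comparisons. The libraries concerned are named beside those results. Over 1440 fits of a member under an alternative, 82 changed sign against the reported value, none of them for a called value. Grouping by the genotype label gave -1.72 for Fasn and -2.22 for Scd1 between genotypes on high fat diet, against 2.07 and 3.01 by title.

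Same-numbered libraries did not deviate together in every pair, so the numbers were not taken to pair the samples, with correlations of -0.09 to 0.39 for diet in WT mice, where 2 of 3 pairs were over 0.1, -0.30 to -0.11 for diet in KO mice, -0.81 to -0.27 for genotype on chow and -0.07 to 0.02 on high fat diet. With a replicate block in the fit, 0 members were called in each comparison. The count over all genes moved more, from 103 for genotype over both diets to 0 to 204 by setting and 10 to 1208 by library left out. It was 12 for diet in WT mice (0 to 17 and 1 to 32), 0 for diet in KO mice (0 to 53 and 0 to 10), 7 for genotype on chow (0 to 8 and 4 to 14), 13 on high fat diet (0 to 27 and 4 to 82), 7 for diet over both genotypes (0 to 47 and 1 to 18) and 0 for the interaction (0 to 1 and 0 to 1). The cause was not tested. With 3 mice a group and intervals of several log2 units for Scd1 and Fasn, differences of this size could be missed. Depth differed by up to 1.36 times, which bears most on Elovl6.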

Other observations

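Cholesterol synthesis, a branch that also starts from acetyl-CoA, was read beside the lipogenic genes. Of 20 genes, 19 were tested and limma called none in any comparison, with 2 at an unadjusted p under 0.05 for diet in WT mice (8.12% of all genes), 3 for diet in KO mice (11.3%), 0 for genotype on chow (16.7%) and 2 on high fat diet (16.2%). The medians were -0.13 and -0.07 for diet in WT and KO mice and 0.06 and 0.16 for genotype on chow and high fat diet, where those of the lipogenic genes were -0.75, -0.96, 0.87 and 0.57. Its summed level lay between 124 and 151 FPKM over all 12 libraries, while that of the 10 lipogenic genes lay between 178 and 1966 FPKM.

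Few markers of other cells in the muscle samples were called. Adgre1, listed under its older symbol Emr1 and a macrophage surface receptor, was the 1 of 6 macrophage markers past the threshold. In KO mice over both diets it was higher by 0.89 (SE 0.16, adjusted p = 0.0418 by limma), where 0.862% of all genes were called. All 6 macrophage markers had an unadjusted p under 0.05 in that comparison, where 26.5% of all genes had one. The 6 had a median genotype difference of 1.28 on high fat diet. No marker of brown adipocytes (3 of 5 tested), skeletal muscle (7 of 8), lymphocytes (8 of 8), fibroblasts (6 of 6), skin (3 of 7) or Schwann cells (6 of 6) was called. At an unadjusted p under 0.05 for diet in KO mice there were 3 brown adipocyte, 1 skeletal muscle, 5 lymphocyte, 0 fibroblast, 1 skin and 1 Schwann cell markers, where 11.3% of all genes had one.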
